A study of Mus musculus with 12 samples.

Results

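The 7 mouse genes named Igfbp1 to Igfbp7, which encode the insulin-like growth factor (IGF) binding proteins, were picked by symbol from the 54839 features of one table of reads per gene. All 7 were found, each under 1 Ensembl identifier, and 6 of them had enough reads to be tested. Hepatocytes were isolated from male, heterozygous p16-Tom mice on a C57BL/6 background by collagenase perfusion and low-speed pelleting, and live tdTomato-positive (Tom+) and tdTomato-negative (Tom-) cells were sorted by flow cytometry. All animals carried a tamoxifen-dependent Cre under the control of p16Ink4a together with a Cre-activated tdTomato reporter, and all received tamoxifen, so that Tom+ marks cells that expressed the transgene when tamoxifen was given. The 4 groups of 3 libraries were Tom- oil and Tom+ oil, from mice injected with corn oil, and Tom- CCl4 and Tom+ CCl4, from mice injected repeatedly with carbon tetrachloride (CCl4) in corn oil, a toxin whose repeated use damages pericentral hepatocytes and brings on fibrosis. The age of the animals was not given in the labels. PolyA RNA was sequenced, and total counts ranged from 37568584 to 75331424 per library. The labels do not say that libraries of one group came from separate animals, so the p-values measure the spread between these libraries, which may be partly technical.

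IGF-1 from the liver circulates bound to IGF binding proteins, which lengthen its half-life, hold it away from its receptor or present it to cells. IGFBP1 to IGFBP6 bind IGFs with high affinity, whereas IGFBP7 binds them weakly and is better known as a protein of vascular matrix. Hepatocytes are a known source of IGFBP1, IGFBP2 and IGFBP4, IGFBP3 in liver comes mostly from nonparenchymal cells, and several members, IGFBP3 and IGFBP7 among them, belong to the factors that senescent cells are known to secrete.

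The reporter and cell type markers were checked first. Reporter RNA was between 120 and 263 CPM (counts scaled to library size with TMM factors) in 5 of the 6 Tom- libraries and between 1225 and 1546 CPM in 5 of the 6 Tom+ libraries. The exceptions were in oil, where the library labelled Tom- replicate 1 reached 1794 CPM and that labelled Tom+ replicate 2 only 135 CPM. The reporter thus went against both labels, and every direction between Tom+ oil and Tom- oil rests on labels that the reporter does not bear out. The 8 hepatocyte markers summed to between 103303 and 147022 TPM (counts per gene length scaled to the same sum in each library) in each library. Transcripts of other liver cells were also present. The 12 markers of stellate cells and fibroblasts summed to 3.88-9.15 TPM in Tom- oil, 5.02-13.0 in Tom+ oil, 31.4-36.6 in Tom- CCl4 and 21.7-43.6 in Tom+ CCl4, with at most 1 of the 12 at 0 in any library. The 12 endothelial markers summed to 66.6-106, 71.9-121, 156-179 and 99.2-127 TPM in the same order of groups, again with at most 1 of the 12 at 0. In bulk RNA, fewer cells of a type and less RNA per cell cannot be told apart.

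On mm10, the family sits at 5 places. Igfbp1 (ENSMUSG00000020429, chr11:7197782-7202546, plus strand) and Igfbp3 (ENSMUSG00000020427, chr11:7206086-7213923, minus strand) are neighbours that point toward each other across a gap of 3539 bases. Igfbp2 (ENSMUSG00000039323, chr1:72824503-72852474, plus strand) and Igfbp5 (ENSMUSG00000026185, chr1:72857932-72874884, minus strand) are a second such pair, with a gap of 5457 bases. Igfbp4 (ENSMUSG00000017493) is at chr11:99041244-99054392, Igfbp6 (ENSMUSG00000023046) at chr15:102144362-102149511 and Igfbp7 (ENSMUSG00000036256) at chr5:77349240-77408041 on the minus strand. The far end of Igfbp7 overlaps that of Polr2b on the opposite strand, and since the strand setting of the counting is not given in the sources used here, some reads there may belong to either gene. The values of these neighbours are set side by side below.

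The 250 bases before the RefSeq transcription start (GRCm38.p6) are shown for Igfbp1, one of the pair of most abundant members, and for Igfbp3, Igfbp5 and Igfbp7, the members that changed. Capitals mark letter matches, on either strand, to TGTTTTG or TATTTTG (the letters of insulin response sequences), to GGGCGG (a GC box) and to TGACTCA (an AP-1 site), and no match overlapped another.
Igfbp1, chr11:7197537-7197786, strand +: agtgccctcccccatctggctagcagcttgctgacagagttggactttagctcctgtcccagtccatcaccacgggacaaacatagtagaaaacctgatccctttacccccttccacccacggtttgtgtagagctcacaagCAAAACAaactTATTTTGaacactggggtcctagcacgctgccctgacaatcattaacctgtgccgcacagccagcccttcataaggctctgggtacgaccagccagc
Igfbp3, chr11:7213924-7214173, strand -: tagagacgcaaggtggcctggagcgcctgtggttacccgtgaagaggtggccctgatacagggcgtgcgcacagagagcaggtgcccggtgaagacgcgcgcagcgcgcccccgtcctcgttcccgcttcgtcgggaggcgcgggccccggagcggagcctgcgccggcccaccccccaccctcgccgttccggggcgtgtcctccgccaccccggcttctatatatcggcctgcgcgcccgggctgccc
Igfbp5, chr1:72874866-72875115, strand -: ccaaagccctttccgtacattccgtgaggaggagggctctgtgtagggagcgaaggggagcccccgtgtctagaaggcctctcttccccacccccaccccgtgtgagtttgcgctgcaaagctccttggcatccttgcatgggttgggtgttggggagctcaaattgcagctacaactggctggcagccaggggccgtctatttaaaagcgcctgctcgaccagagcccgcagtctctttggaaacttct
Igfbp7, chr5:77408046-77408295, strand -: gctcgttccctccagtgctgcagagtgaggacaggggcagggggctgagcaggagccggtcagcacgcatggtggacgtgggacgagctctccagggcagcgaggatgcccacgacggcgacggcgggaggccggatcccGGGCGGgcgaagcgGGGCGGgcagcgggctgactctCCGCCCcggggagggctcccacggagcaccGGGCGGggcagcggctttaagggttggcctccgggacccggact
The Igfbp1 stretch held the reverse complement of TGTTTTG from 108 to 102 bases before the start and TATTTTG from 97 to 91 bases before it, letters known from earlier work as the insulin response element of this gene. Of 32851 mouse stretches of this length, 5.56% held TGTTTTG, 3.95% held TATTTTG and 0.381% held both. Igfbp7 held 4 GC boxes, a motif found in 32.7% of all stretches, and none of the 4 printed stretches held the AP-1 letters, which were found in 4.46%. The Igfbp3 and Igfbp7 stretches were rich in CpG, with 32 and 26 CpG pairs, against 10 for Igfbp5, 5 for Igfbp1 and a median of 6 over all stretches (quartiles 2 and 16). These are matches of letters only, and no binding was measured.

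The members were spread over several levels of abundance. By mean TPM over the 12 libraries, Igfbp1 had 653 (range 388-881) and Igfbp4 had 647 (501-763), and together they made up most of the family's RNA, 43.4% and 43.7% of the summed TPM. Igfbp1 was above Igfbp4 in 6 of 12 libraries, so their order was not resolved. Igfbp2 followed at 136 TPM (86.9-170) and Igfbp7 at 42.9 TPM (19.2-76.2), each above the next gene in 12 of 12 libraries. Igfbp5 at 3.90 TPM (1.16-8.56) and Igfbp3 at 2.12 TPM (0.268-4.07) were the lowest of the tested members. Their order changed with treatment: Igfbp5 was above Igfbp3 in 7 of 12 libraries, and by group means it ranked above Igfbp3 in both oil groups and below it in both CCl4 groups. Igfbp6 was nearly absent, at 0.240 TPM (0-1.48). The summed TPM of the 7 genes was 1430-1791 in Tom- oil, 1489-1627 in Tom+ oil, 1121-1616 in Tom- CCl4 and 1193-1518 in Tom+ CCl4, and these ranges overlapped.

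**Figure D1:**
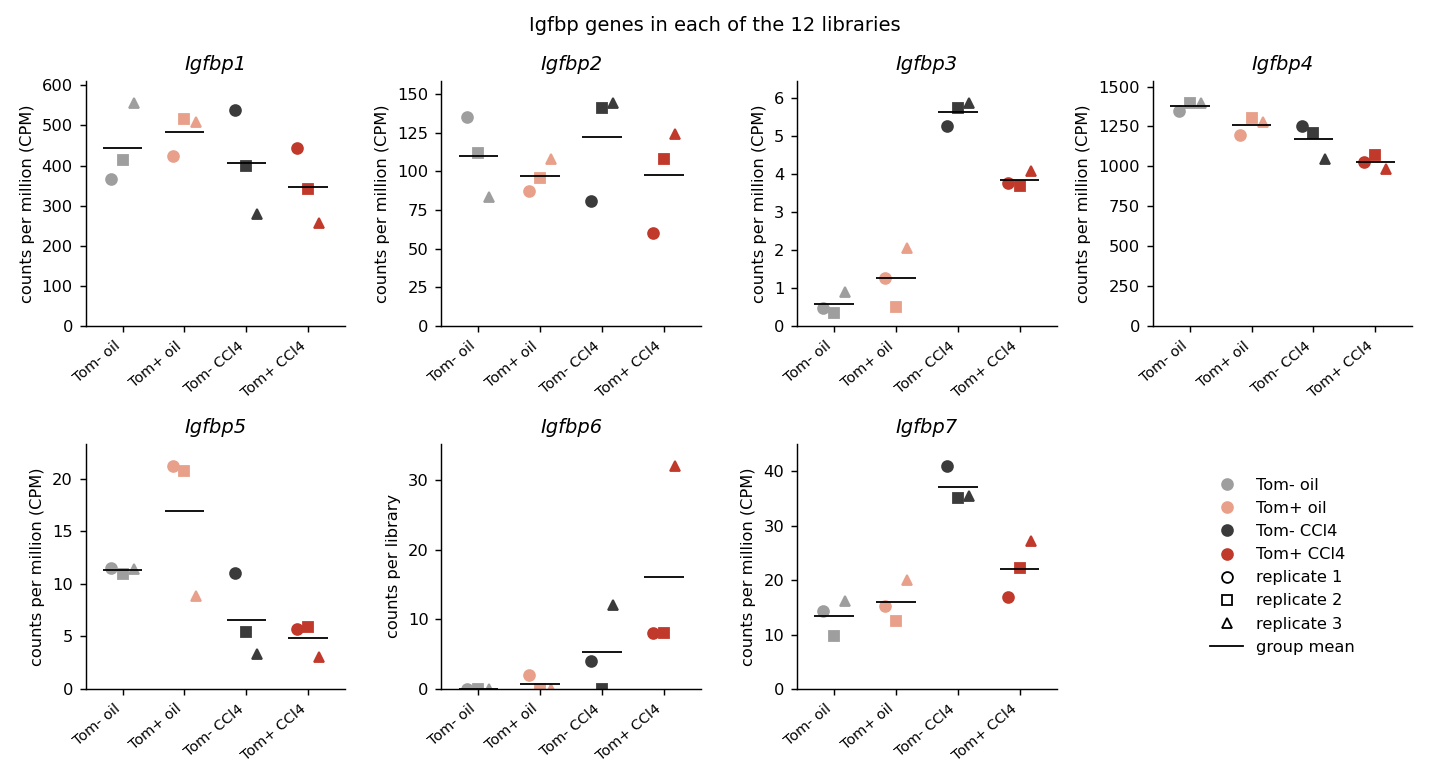
Values of the 7 Igfbp genes in each library, as CPM on linear axes that start at 0, except Igfbp6, which is shown as counts per library. Colours give the group, symbols the replicate number and black lines the group mean (n = 3); Igfbp3 is higher in all 6 CCl4 libraries (3.67-5.85 CPM) than in any oil library (0.349-2.06 CPM), whereas Igfbp1, Igfbp2 and Igfbp4 keep their order of magnitude.

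Whether CCl4 changed the family was asked in each fraction. In Tom- hepatocytes, Igfbp3 and Igfbp7 rose, that is, 2 of the 6 tested members were called (adjusted p below 0.05 and at least 0.75 up or down on the log2 scale), against 7.92% of all 17121 genes tested. In Tom+ hepatocytes, Igfbp3 rose and Igfbp5 fell, again 2 of 6, against 5.24% of all genes. Averaged over both fractions, a comparison into which both fractions enter with equal weight, 3 of 6 changed, with Igfbp3 and Igfbp7 higher and Igfbp5 lower, against 8.43% of all genes. Same-numbered Tom+ and Tom- libraries may share an animal, and this fit treats them as independent, so averaged p-values and SEs can be too small. Without both oil libraries whose reporter went against the label, the members called were 2, 0 and 3 in these 3 comparisons, and the third member of the averaged comparison was then Igfbp6, which gained a test, in place of Igfbp5. These counts are not set against the share of all genes called without those libraries.

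Igfbp3, the main carrier of circulating IGFs together with the acid-labile subunit Igfals, showed the largest change of the tested members in Tom- hepatocytes and averaged over fractions. Its level was 0.475, 0.349 and 0.899 CPM in Tom- oil and 1.26, 0.496 and 2.06 CPM in Tom+ oil. After CCl4 it was 5.26, 5.72 and 5.85 CPM in Tom- and 3.77, 3.67 and 4.07 CPM in Tom+ hepatocytes. All 6 CCl4 libraries lay above all 6 oil libraries, and within CCl4 the Tom- libraries lay above the Tom+ libraries. The log2 fold change with CCl4 was 3.28 ± 0.43 (SE, n = 3 libraries per group), or 9.70-fold, in Tom- hepatocytes (adjusted p = 5.4e-04, edgeR quasi-likelihood test with Benjamini-Hochberg adjustment). In Tom+ hepatocytes it was 1.61 ± 0.39, or 3.05-fold (adjusted p = 0.0214 by the same edgeR test). This second call was lost without the library labelled Tom+ oil replicate 1 (adjusted p = 0.0819), without Tom+ CCl4 replicate 2 (0.0516) or replicate 3 (0.0674), without both oil libraries with a contrary reporter (0.0520) and with only the 6 Tom+ libraries in the edgeR fit (0.0507), while the log2 fold change stayed between 1.22 and 2.1. Over both fractions the log2 fold change was 2.44 ± 0.29 (adjusted p = 1.2e-04, edgeR). These values rest on few reads, 18 to 87 counts per oil library and 168 to 306 per CCl4 library.

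Igfbp7, a matrix and vessel-associated member, had higher counts and a different pattern between fractions. It was at 14.4, 9.69 and 16.1 CPM in Tom- oil, 15.3, 12.4 and 20.1 in Tom+ oil, 41.0, 35.2 and 35.4 in Tom- CCl4, and 16.9, 22.3 and 27.2 in Tom+ CCl4. The 3 Tom- CCl4 libraries stood above the other 9 libraries, while Tom+ CCl4 overlapped Tom+ oil. In Tom- hepatocytes CCl4 raised Igfbp7 by 1.47 ± 0.22 on the log2 scale, or 2.78-fold (SE, adjusted p = 0.00155, edgeR), and in Tom+ hepatocytes the difference was 0.48 ± 0.22 (adjusted p = 0.203, edgeR). Averaged over fractions it was 0.98 ± 0.15 (adjusted p = 0.00120, edgeR).

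Igfbp5, which binds extracellular matrix as well as IGFs, went the other way. It was even in Tom- oil, at 11.5, 10.9 and 11.4 CPM, and uneven in Tom+ oil, at 21.2, 20.7 and 8.84 CPM. With CCl4 it was 11, 5.39 and 3.32 CPM in Tom- and 5.71, 5.87 and 3.05 CPM in Tom+ hepatocytes. The Tom+ groups did not overlap, whereas the Tom- groups did, through Tom- CCl4 replicate 1. In Tom+ hepatocytes Igfbp5 fell by 1.79 ± 0.45 on the log2 scale, 3.46-fold lower (SE, adjusted p = 0.0357, edgeR), and averaged over fractions it fell by 1.29 ± 0.32 (adjusted p = 0.0178, edgeR). The difference in Tom- hepatocytes was -0.78 ± 0.45 (adjusted p = 0.265, edgeR), and without Tom- CCl4 replicate 1 it was -1.38 (adjusted p = 0.050, edgeR) and called. The call in Tom+ hepatocytes was lost under 12 of 19 alternatives. Of the 12 that left out 1 library, it was kept only without the library labelled Tom+ oil replicate 3 and without Tom- CCl4 replicate 1 or 3, and the adjusted p over all alternatives ran from 0.00397 to 0.143. The averaged call was lost (adjusted p = 0.0725) without both oil libraries with a contrary reporter.

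The 3 abundant hepatocyte members changed little. Igfbp4, an inhibitory member that the protease PAPP-A releases from IGFs, was at 1349, 1395 and 1394 CPM in Tom- oil, 1196, 1305 and 1279 in Tom+ oil, 1255, 1208 and 1049 in Tom- CCl4 and 1025, 1071 and 984 in Tom+ CCl4. Within each fraction every CCl4 library was lower than every oil library. The averaged difference of -0.27 ± 0.07 on the log2 scale passed the adjusted p-value (0.0112, edgeR) but not the fold threshold, and it was -0.24 ± 0.09 (adjusted p = 0.0962) in Tom- and -0.30 ± 0.09 (adjusted p = 0.0610) in Tom+ hepatocytes.

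Igfbp1, the insulin-repressed member, was at 366, 413 and 555 CPM in Tom- oil, 424, 517 and 509 in Tom+ oil, 539, 398 and 280 in Tom- CCl4 and 444, 341 and 256 in Tom+ CCl4. Igfbp2, a member that rises in liver on fasting, was at 135, 112 and 83.6 CPM in Tom- oil, 87.3, 96.0 and 108 in Tom+ oil, 81.0, 141 and 144 in Tom- CCl4 and 60.5, 108 and 124 in Tom+ CCl4. For both genes the groups overlapped in both fractions. The averaged log2 difference with CCl4 was -0.31 ± 0.18 for Igfbp1 (adjusted p = 0.242, edgeR) and 0.08 ± 0.21 for Igfbp2 (adjusted p = 0.830, edgeR). Within CCl4 both genes followed the replicate number. Replicate 1 had the highest Igfbp1 and the lowest Igfbp2 in both fractions, and replicate 3 had the lowest Igfbp1 and the highest Igfbp2 in both fractions. Over the 12 libraries the log2 CPM of the 2 genes had a Pearson r of -0.62, and of -0.84 for deviations from group means, a description over libraries that share normalization and, within a pair, possibly the animal.

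Igfbp6, a member that prefers IGF-2, gave 0, 0 and 0 counts in Tom- oil and 2, 0 and 0 in Tom+ oil. After CCl4 it gave 4, 0 and 12 counts in Tom- and 8, 8 and 32 in Tom+ hepatocytes. It was not tested in the fit over filtered genes. Summed over a group, the 16 counts in Tom- CCl4 were at least 6.0-fold higher than a floor of 3 counts over Tom- oil, and the exact 95% Poisson interval of the ratio began at 4.34. Without Tom- CCl4 replicate 3, the 4 counts left were 2.44-fold above that floor. In Tom+ the pooled level went from 0.0123 to 0.274 CPM (2 and 48 counts), a ratio of 22.3, with an exact 95% Poisson interval of 5.84 to 189. The 6 libraries above 0 all had even counts, and if each sequenced pair was counted as 2 reads, the interval begins at 1.92 in Tom- and widens to 3.63 to 916 in Tom+. Tom+ CCl4 replicate 3 gave most of the Tom+ counts, and without it the ratio was 10.2 (2.41 to 91.7). The only counts in oil came from the library labelled Tom+ oil replicate 1, without which the Tom+ group was at 0 and CCl4 at least 8.53-fold above the floor. In edgeR without a filter, the averaged difference had an adjusted p of 0.00518, and those within Tom- and Tom+ hepatocytes 0.0660 and 0.0691. The 6 mesothelial markers, which include Upk3b and Msln, were all at 0 in 5 of the 6 oil libraries and summed to 0.115-0.898 TPM in Tom- CCl4 and 0.0370-2.20 TPM in Tom+ CCl4. The highest library for these markers and for Igfbp6 was Tom+ CCl4 replicate 3 in each case, and Upk3b, at 0 in all 6 oil libraries, had up to 24 counts in a CCl4 library. That library was also the highest for the summed stellate cell and fibroblast (43.6 TPM), Kupffer cell and macrophage (222) and cholangiocyte (36.9) markers. It was not the highest for the endothelial markers (127 TPM). The part of mesothelial RNA or of other cells' RNA in the Igfbp6 result was not tested.

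**Figure D2:**
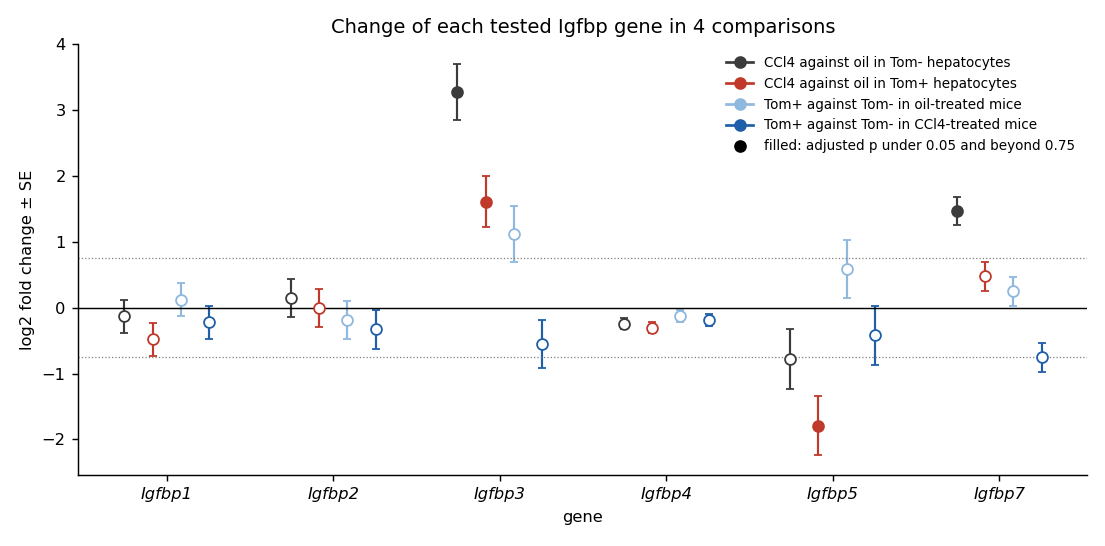
Log2 fold change ± SE (vertical axis) of the 6 tested Igfbp genes (horizontal axis) in 4 comparisons of 3 against 3 libraries, with filled circles for those past an adjusted p-value of 0.05 and a log2 fold change of 0.75 (dotted lines). The filled points are Igfbp3 (3.28 in Tom-, 1.61 in Tom+ hepatocytes), Igfbp5 (-1.79 in Tom+) and Igfbp7 (1.47 in Tom-), and no comparison of Tom+ against Tom- has one.

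Whether Tom+ and Tom- hepatocytes differed in these genes was asked within each treatment. In oil-treated mice no member and 0 of 17121 genes were called (0%) with edgeR, although 1198 genes had an unadjusted p under 0.05, and DESeq2 called 17 genes and no member. In CCl4-treated mice 0 of 6 members were called, against 1.96% of all genes. The nearest was Igfbp7, which was lower in Tom+ than in Tom- hepatocytes in 3 of 3 same-numbered pairs, with a log2 difference of -0.75 ± 0.22 (adjusted p = 0.0621, edgeR). It was called with DESeq2 (adjusted p = 0.00931) and with only the 6 CCl4 libraries in the edgeR fit (adjusted p = 0.0361). Of the other members, Igfbp1, Igfbp2, Igfbp3 and Igfbp4 were also lower in 3 of 3 pairs and Igfbp5 in 2 of 3, and Igfbp4 was lower in 3 of 3 oil pairs too. The share of all genes lower in 3 of 3 pairs was not counted, so whether these directions are particular to the family cannot be told. Of all genes called in CCl4, 298 were lower and 38 higher in Tom+, with a median log2 difference of 0.00 over all tested genes. Igfbp3 was lower without overlap of the groups, with a difference of -0.55 ± 0.37 (adjusted p = 0.415, edgeR). Tom+ and Tom- libraries of one number within a treatment deviated together across genes, so the fit with these pairs as a block was set beside the first. With the replicate block, Igfbp7 was called in CCl4 (-0.77 ± 0.14, adjusted p = 0.00267, edgeR), 1 of 6 members against 3.98% of all genes, and Igfbp3 was not (-0.55 ± 0.18, adjusted p = 0.0534, edgeR). In oil the block gave 0 of 6 members against 0.234% of all genes, with Igfbp3 at 1.08 ± 0.24 (adjusted p = 0.0612, edgeR).

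The interaction asked whether the difference between fractions changed with treatment. Without the block, 0 of 6 members were called, against 1.17% of all genes. Igfbp3 had an interaction of -1.67 ± 0.57 (adjusted p = 0.140) and Igfbp7 one of -1.0 ± 0.31 (adjusted p = 0.117) in edgeR. With the replicate block, both were called, 2 of 6 members against 5.48% of all genes, at -1.63 ± 0.30 (adjusted p = 0.00398) for Igfbp3 and -1.03 ± 0.20 (adjusted p = 0.00623) for Igfbp7 in edgeR. Both genes were higher in Tom+ than in Tom- in 3 of 3 oil pairs and lower in 3 of 3 CCl4 pairs. Reporter RNA, however, was high in both libraries of oil pair 1 (1794 CPM in Tom- and 1546 in Tom+) and low in both of pair 2 (157 and 135). Only oil pair 3 (143 and 1225 CPM) had the reporter difference that its labels name. The count of oil pairs and the calls with the block thus rest partly on pairs without that difference. DESeq2 without a block called both (adjusted p = 0.0430 and 0.0255), and edgeR called Igfbp3 without the library labelled Tom+ oil replicate 2 (-2.05, adjusted p = 0.0446). Without both oil libraries whose reporter went against the label, and with no block, the interactions were -1.94 (adjusted p = 0.0857) for Igfbp3 and -1.20 (adjusted p = 0.157) for Igfbp7 in edgeR.

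**Figure D3:**
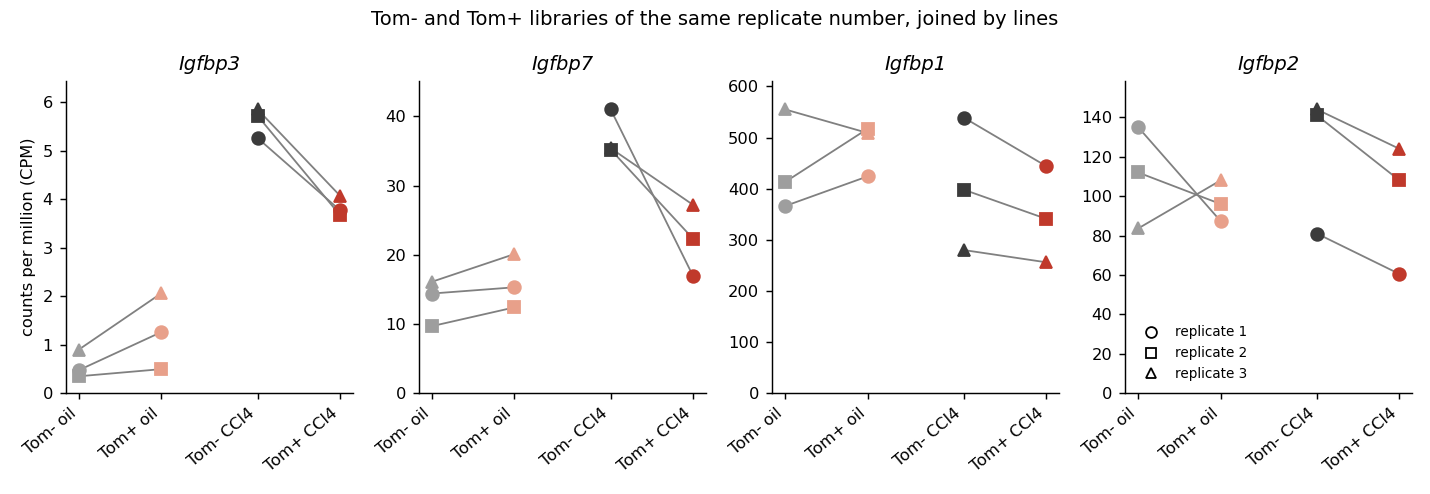
CPM of Igfbp3, Igfbp7, Igfbp1 and Igfbp2 (vertical axes from 0) in the Tom- and Tom+ libraries of each treatment, with lines joining libraries of the same replicate number. For Igfbp3 and Igfbp7 all 3 oil lines rise toward Tom+ and all 3 CCl4 lines fall, while Igfbp1 and Igfbp2 keep the same order of replicate numbers in both CCl4 fractions.

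Between oil and CCl4 libraries, markers of other cells moved with Igfbp3 and Igfbp7. With CCl4, 9 of the 11 tested stellate cell and fibroblast markers rose in Tom- and 7 in Tom+ hepatocytes (edgeR, same thresholds), with median log2 fold changes of 2.85 and 1.89 against 0.00 for all genes. Igfbp3 TPM spanned 15.2-fold over the libraries and the summed stellate cell and fibroblast markers 11.2-fold, and the ratio of the former to the latter spanned 2.83-fold (0.0520-0.147). This ratio was 0.0520-0.124 in oil, 0.108-0.120 in Tom- CCl4 and 0.0736-0.147 in Tom+ CCl4. Within Tom+ CCl4, replicates 1 to 3 had marker sums of 21.7, 34.8 and 43.6 TPM, but Igfbp3 stayed at 3.19, 3.08 and 3.21 TPM. The genes whose log2 CPM was most like Igfbp3 over the 12 libraries, of 9662 compared, were Col14a1, Bgn and Col3a1, matrix genes of fibroblasts, each with a Pearson r of 0.97. Of these, Col3a1 is itself one of the listed markers.

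Of the 12 endothelial markers, 11 rose with CCl4 in Tom- hepatocytes and 0 in Tom+ hepatocytes, and 6 were lower in Tom+ than in Tom- after CCl4. Their median log2 fold changes were 1.15, 0.10 and -0.83, and 7.92%, 5.24% and 1.96% of all genes were called in these comparisons. Igfbp7 TPM spanned 3.96-fold and the summed endothelial markers 2.68-fold. The ratio of the 2 spanned 1.52-fold, being 0.289-0.333 in the oil libraries and 0.374-0.438 in the CCl4 libraries, where Tom- (0.376-0.426) and Tom+ (0.374-0.438) overlapped. The genes most like Igfbp7, of 9661 compared, were Tek (r = 0.99) and Oit3 (r = 0.98), both on the endothelial list, and Arrb1 (r = 0.97). Kupffer cell and macrophage markers (10 genes, 20.7-123, 34.3-173, 141-169 and 86.0-222 TPM in the 4 groups, none at 0) had no gene called in any comparison without the replicate block, although the median log2 fold change with CCl4 was 1.5 in Tom- and 0.51 in Tom+ hepatocytes. The 8 cholangiocyte markers summed to 17.7-36.9 TPM, with Krt19 and Krt7 at 0 in all oil libraries, and 1 of its 4 tested genes, Spp1, rose in Tom+ hepatocytes (1.23 ± 0.33, adjusted p = 0.0334, edgeR). Of the 8 hepatocyte markers, 1 fell with CCl4 in Tom+, Cps1, an enzyme of the urea cycle (-0.93 ± 0.14, adjusted p = 0.00123, edgeR), and none was called in Tom- hepatocytes. With the replicate block, 7 endothelial markers and 1 Kupffer cell marker were lower in Tom+ than in Tom- after CCl4. In the interaction with the block, 11 of 12 endothelial markers were called lower (median -1.04), as were 5 of 10 Kupffer cell markers (median -1.11) and 1 of 11 stellate cell and fibroblast markers, Dcn (median of the list -0.79), and without the block 1, 0 and 0 were. These are the same directions as the interactions of Igfbp3 and Igfbp7. The part of other cells' RNA in the Igfbp3 and Igfbp7 results was not tested.

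**Figure D4:**
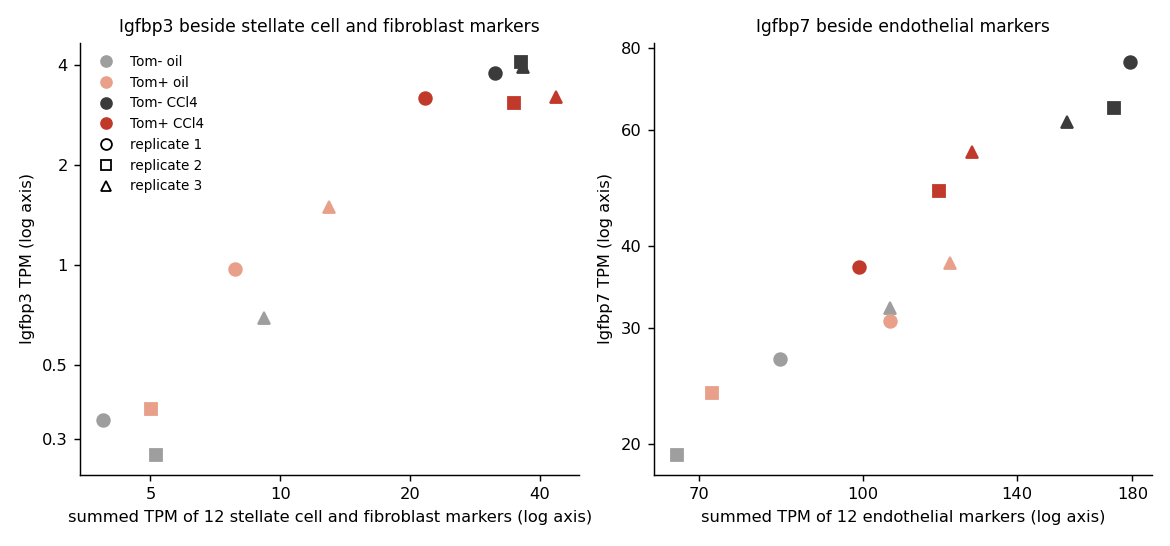
TPM of Igfbp3 against the summed TPM of 12 stellate cell and fibroblast markers, and of Igfbp7 against that of 12 endothelial markers, 1 point per library, both axes logarithmic, with colour for the group and symbol for the replicate number. The 6 CCl4 libraries lie apart from the oil libraries for Igfbp3, and the 3 Tom- CCl4 libraries are highest for both Igfbp7 and the endothelial markers (156-179 TPM).

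The other members were closest to other genes. Most like Igfbp1 were Lifr, a receptor subunit for IL-6 family cytokines, Cpn2 and Igf1 itself, each with r = 0.92 over 12 libraries (0.96, 0.92 and 0.90 for deviations from group means). Igfbp4 was most like Slc7a2 (0.97), Cyp2j5 (0.96) and Acad10 (0.95), and Igfbp5 like P2ry4 (0.97), Dclk3 (0.96) and Adcy9 (0.96). By r over the 12 libraries Igfbp2 had the weakest likeness, to Tmem205 and Rps21 (0.86) and Gm26631 (0.85). For deviations from group means it was not weak, at 0.89, 0.97 and 0.94 in that order. Within the family, Igfbp3 and Igfbp7 had r = 0.90 (0.74 for deviations), and the neighbours Igfbp1 and Igfbp3 had r = -0.35 and Igfbp2 and Igfbp5 r = -0.38. All these points share libraries and normalization, and the coefficients are descriptions.

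Around the binding proteins, few genes of the IGF axis were called. Of 16 listed genes 10 were tested. Igf1 and Ghr, the growth hormone receptor, were abundant, with mean levels of 121-171 and 102-147 TPM over the groups, whereas Igf2, Pappa, Pappa2, Stc1, Stc2 and Insrr had too few reads for a test. In Tom- hepatocytes 2 of 10 rose with CCl4 and none fell, against 7.92% of all genes called in either direction. The risen genes were Igf1r, the IGF-1 receptor (1.90 ± 0.47, adjusted p = 0.0159, edgeR), and Grb10, an adaptor that inhibits insulin and IGF-1 receptors (2.12 ± 0.25, adjusted p = 2.3e-04, edgeR). In Tom+ hepatocytes 0 of 10 were called, against 5.24% of all genes, with Igf1r at 0.14 ± 0.45 and Grb10 at 0.60 ± 0.24. Grb10 had an interaction of -1.51 ± 0.34 (adjusted p = 0.0477, edgeR). Both genes were low, at mean levels of 0.0641-0.221 TPM for Igf1r and 0.238-0.964 TPM for Grb10. Igfals, the partner of Igfbp3 in the ternary complex, was at 161 ± 10.1, 191 ± 38.2, 187 ± 43.0 and 145 ± 13.9 TPM (SD, n = 3) in Tom- oil, Tom+ oil, Tom- CCl4 and Tom+ CCl4. Its difference between Tom+ and Tom- in CCl4 of -0.60 ± 0.15 passed the adjusted p-value (0.0327, edgeR) but not the fold threshold. The same held there for Irs1, which was higher in Tom+ (0.51 ± 0.10, adjusted p = 0.0147, edgeR). Averaged over fractions, it held with CCl4 for Igf2r (0.50 ± 0.10), Ghr (-0.34 ± 0.07) and Irs2 (-0.24 ± 0.08, adjusted p = 0.00305, 0.00475 and 0.0456, edgeR). Igf1r and Grb10 were called in that average (1.02 ± 0.33 and 1.36 ± 0.17, adjusted p = 0.0386 and 1.6e-04, edgeR). The median log2 fold change of the 10 genes was -0.09 in Tom- and 0.04 in Tom+ hepatocytes, against 0.00 for all genes.

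Several genes that share the IGFBP domain without belonging to the family changed. Of 13 listed, 12 were tested, and in Tom- hepatocytes 5 rose and 1 fell with CCl4, against 2 and 1 in Tom+ hepatocytes, with medians of 0.87 and 0.49. Of all genes, 7.92% in Tom- and 5.24% in Tom+ were called in either direction, with medians of 0.00. Among these, Ccn5, a matricellular protein of the CCN family, rose by 4.0 ± 0.81 in Tom+ (adjusted p = 0.0127, edgeR) and by 2.66 ± 0.78 in Tom- (adjusted p = 0.0427). Igfbpl1 rose by 2.89 ± 0.86 in Tom- (adjusted p = 0.0384) and Esm1, an endothelial proteoglycan, by 2.32 ± 0.51 (adjusted p = 0.0109), all in edgeR. Htra4, a secreted serine protease, fell by 1.48 ± 0.43 in Tom- (adjusted p = 0.0330) and by 3.93 ± 0.49 in Tom+ (adjusted p = 3.7e-04), and it was lower in Tom+ than in Tom- after CCl4 (-2.22 ± 0.51, adjusted p = 0.0236, edgeR). Some of these changes rest on few reads. Counts per library were 3-16 for Igfbpl1 and 0-40 for Ccn5 in Tom- oil, and 2-14 for Htra4 in Tom+ CCl4.

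Igfbp1 is a known target of FOXO1, the factor that insulin shuts out of the nucleus, and of the stress factor ATF4. For the lists of this paragraph, the share of all genes called was 7.92% in Tom-, 5.24% in Tom+ and 8.43% averaged. Of 7 listed genes of the FOXO1 program of the fasted liver, all tested, 0 were called within either fraction and 1 averaged over both, Pdk4 (1.40 ± 0.42, adjusted p = 0.0433, edgeR), a kinase that blocks pyruvate oxidation. Pck1 went the other way without passing the fold threshold, at -0.72 ± 0.16 in Tom+ and -0.53 ± 0.11 averaged (adjusted p = 0.0116 and 0.00461, edgeR). G6pc was lower in Tom+ than in Tom- after CCl4 (-0.73 ± 0.17, adjusted p = 0.0253, edgeR), also short of that threshold. The list medians with CCl4 were -0.07 in Tom- and -0.19 in Tom+. Of 9 ATF4 targets, 1 rose and 1 fell in Tom- and 1 rose in Tom+ hepatocytes. Psat1, an enzyme of serine synthesis, rose in both (1.75 ± 0.47 and 2.08 ± 0.46, adjusted p = 0.0226 and 0.0130, edgeR), and Trib3 fell in Tom- (-1.26 ± 0.31, adjusted p = 0.0155, edgeR). Of the 6 markers by which the study told liver zones apart in single cells, Igfbp2 among them, 0 were called in Tom- and 3 in Tom+ hepatocytes, the periportal genes Sds (-1.93 ± 0.21) and Cyp2f2 (-2.36 ± 0.34) lower and Hamp, the gene of the iron hormone hepcidin (1.85 ± 0.43), higher. Igfbp2 was at 0.00 ± 0.29 in the same comparison of CCl4 with oil in Tom+ (adjusted p = 0.999, edgeR). After CCl4, Sds and Cyp2f2 were lower in Tom+ than in Tom- (-1.39 ± 0.21 and -1.42 ± 0.33, adjusted p = 0.00625 and 0.0368, edgeR), the pericentral genes Glul and Cyp2e1 were higher in 3 of 3 pairs (1.43 ± 0.83 and 0.99 ± 0.40, adjusted p = 0.357 and 0.175) and were called with the replicate block (adjusted p = 0.0361 and 4.9e-05, edgeR), and Igfbp2 was at -0.33 ± 0.29 (adjusted p = 0.557, edgeR).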

How the data were processed

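RNA-seq of 12 libraries was analysed, and the groups and replicate numbers came from the labels. The submitters' processing notes name fastp 0.23.2, HISAT2 2.1.0, DESeq2 1.42.1 and the mm10 build. Libraries were strand-specific, and the study's methods name TPMcalculator for TPM, which were not used here. The program behind the counts, its strand setting and the annotation release are not given in the sources used here. Deposited by the authors was a table of expected counts for each gene, without normalization, and its position and length. Between 30.4% and 32.9% of non-zero values per library were not whole, so they were rounded, whereas the design had assumed whole counts. Of non-zero counts up to 20, 68.4%-71.8% per library were even. Symbols were matched for 54723 of 54839 features (99.8%), and all 12 sample columns were used.

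The 7 genes, the lists and the tests were chosen with earlier results of these data known. The tests used edgeR 4.0.16 under R 4.3.3: filterByExpr (17121 genes kept), TMM normalization and the robust quasi-likelihood test in one fit of 12 libraries with a coefficient per group, with p-values adjusted over all genes by Benjamini-Hochberg. A call needed an adjusted p below 0.05 and a log2 fold change of more than 0.75 in size. Only the comparison of CCl4 with oil in Tom- hepatocytes was tried on simulated counts, drawn for independent libraries without pairs. The other comparisons and the replicate block were not simulated. The smallest level was set at 3 counts over a group for Igfbp6, and intervals cover counting error only. Named genes were the 7 members, every called IGF axis gene, up to 4 genes per other list by size of change, and the 3 genes with at least 5 CPM most correlated with each tested member. RefSeq promoter stretches matched all 7 members.

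Alternatives were RLE size factors, no filter, DESeq2 1.42.0, no fold threshold, 6 libraries per fit, leaving out each library, leaving out both oil libraries with a contrary reporter, and replicate blocks (limma 3.58.1 for the averaged comparison). Pairing came from the replicate numbers in the labels. Deviations of same-numbered Tom+ and Tom- libraries correlated at 0.37-0.57 in oil and 0.49-0.69 in CCl4 over 9662 genes, so numbers were taken as pairs within a treatment. Figures were drawn with matplotlib 3.10.9.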

Additional observations from a re-analysis of the deposited data

Results flagged for a closer look

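Among the Igfbp and IGF axis genes, the effect of the fraction differed between treatments for 4 genes in the test of the difference itself, without or with the replicate block. With the block 5.48% of all genes and 11 of 12 endothelial markers were called in this test, so it is not particular to these genes. For Igfbp3 the interaction was -1.63 ± 0.30 on the log2 scale (SE) with the replicate block (adjusted p = 0.00398, edgeR) and -1.67 without it (adjusted p = 0.140), and Tom+ was higher in 3 of 3 oil pairs and 0 of 3 CCl4 pairs. For Igfbp7 it was -1.03 ± 0.20 with the block (adjusted p = 0.00623, edgeR) and -1.0 without it (adjusted p = 0.117), with the same count of pairs. Grb10, an adaptor that inhibits insulin and IGF-1 receptors, had -1.51 without the block (adjusted p = 0.0477, edgeR) and -1.56 with it (adjusted p = 0.00551), again 3 of 3 and 0 of 3 pairs. Igfals, the partner of Igfbp3 in the circulating complex, had -0.82 ± 0.14 with the block (adjusted p = 0.00243, edgeR) and -0.85 without it (adjusted p = 0.0592), with Tom+ higher in 2 of 3 oil pairs and 0 of 3 CCl4 pairs. In oil these directions rest on labels that the reporter contradicted in 2 libraries, and only oil pair 3 had a higher reporter in Tom+ (1225 CPM) than in Tom- (143 CPM).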

How the results depend on the processing

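Of all alternative values, 625 kept direction and call, 18 lost a call, 11 gained one and 18 turned sign. The rises of Igfbp3 and Igfbp7 in Tom- hepatocytes and averaged over fractions were called under every alternative run (adjusted p at most 0.00462, 0.00801, 7.3e-04 and 0.00761 in that order). Members called in Tom+ hepatocytes were 1 without a filter, 0 with 6 libraries, 0 without both oil libraries with a contrary reporter and 0-2 when a library was left out. Neither these counts nor the member counts that follow are set against the share of all genes called under the same setting, beyond the totals given last. Members called between fractions in CCl4 were 1 with DESeq2, 1 with 6 libraries and 1 with the replicate block, each time Igfbp7. Interactions called were 2 with DESeq2, 2 with the replicate block and 0-1 when a library was left out. For CCl4 against oil, where numbers did not pair libraries (correlations 0.02-0.31), a block on the number gave 3 members in Tom- and 2 in Tom+ hepatocytes, and the random block 3 averaged. How many of all genes were called with these blocks is not given here, so the member counts are not a result about the family. All genes called with the block between fractions were 682 in CCl4 (336 without), 40 in oil (0 without; DESeq2 17) and 938 for the interaction (201 without; DESeq2 565). In CCl4 DESeq2 called 530.

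Signs turned only for differences that were not called. With a library left out, Igfbp1 in Tom- ran from -0.39 to 0.07 (0.06 without Tom- oil replicate 3), Igfbp2 in Tom- from -0.02 to 0.37, Igfbp2 in Tom+ from -0.21 to 0.25 (-0.08, -0.07 and -0.01 also turned), Igfbp2 averaged from -0.03 to 0.20 (-0.01 also turned), Igfbp1 between fractions in CCl4 from -0.45 to 0.04 and Igfbp5 from -0.74 to 0.18, Igfbp1 in oil from -0.00 to 0.31, and the Igfbp2 interaction from -0.37 to 0.10 (0.02 also turned). Without both oil libraries, Igfbp2 in Tom+ was -0.00 and Igfbp1 in oil -0.07, and Igfbp2 in Tom+ was -0.00 with 6 libraries and -0.03 with the replicate block. The causes were not tested. The order of members by TPM was the same with normalized counts per kilobase. Depth limits Igfbp6 and, in oil, Igfbp3.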
